A study of Mus musculus with 17 samples.

Results

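The TRIM (tripartite motif) genes measured here were the array rows whose platform annotation gave exactly 1 symbol, made of Trim and a number with or without a letter, with Trim28 left out. This rule gave 57 rows for 57 genes, 1 row per gene, of 21780 rows with exactly 1 symbol. A row is a probe set of the Affymetrix GeneChip Mouse Gene ST array of the first generation, and its value is a log2 RMA intensity (robust multichip average, which corrects background and normalizes arrays to a common distribution).

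TRIM proteins share an N-terminal RING finger, B-box zinc fingers and a coiled coil, and most act as ubiquitin ligases, which attach ubiquitin to a target protein once a conjugating enzyme has delivered it. The C-terminal domain differs between members and binds the target. The family is known for roles in antiviral signalling and restriction of viruses, in chromatin reading, in muscle, and in stem cells and the early embryo.

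Each array held the amplified RNA of 1 whole 2-cell embryo, the stage at which the mouse embryo starts most of its own transcription while maternal RNA is degraded. All embryos came from wild-type animals of the inbred strain 129SVE. The 10 PJ34 embryos were fathered by 3 males injected daily for 6 weeks with PJ34, which inhibits PARP1 and PARP2, the enzymes that make poly(ADP-ribose) (sires MTM11 with 4 embryos, MTM13 with 4 and MTM14 with 2). The 7 control embryos were fathered by 3 males that the labels call both saline treated and untreated (3 embryos each of sires B and D and 1 of sire A). The mothers were untreated wild-type females mated naturally, and neither the number of mothers nor the ages of the animals were given in the sources used here. The study asked whether a disturbed sperm chromatin, here through the inhibitor given to the father, is followed by altered transcript levels in the offspring embryo. Embryos are named by sire and number. Embryos of 1 sire share that sire, so p-values over embryos measure the spread between these embryos rather than between males.

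The arrays were alike in scale, with medians over all rows from 6.12 to 6.23. The labelled stage was checked against marker genes. All 8 oocyte markers lay in the top 25% of rows, as did 2 of the 3 markers of the 2-cell burst that had a row with 1 symbol (Zfp352 and Tcstv3, but not Usp17la), while 5 of the 8 fixed burst markers had no such row. None of 7 cumulus cell markers and none of 6 spermatid and sperm markers lay in the top 25%, and 1 of 5 blood and oviduct markers did (Epcam, 7.71). The mean log2 value over the cumulus rows ran from 5.39 to 5.53 in control embryos and from 5.29 to 5.60 in PJ34 embryos, that over the sperm rows from 5.65 to 5.98 and from 5.72 to 5.92, and that over the blood and oviduct rows from 5.76 to 6.00 and from 5.81 to 6.38. At an unadjusted limma p below 0.05, PJ34 embryos were higher for the oocyte marker Bmp15 (by 0.29, log2) and the sperm marker Prm1 (by 0.17). They were lower for the red cell marker Slc4a1 (-0.16). These were 3 of 29 marker rows, where 5.89% of all rows met this level. The part of other cells or of embryo timing in the results below was not tested. For other cells carried along with an embryo, fewer cells and less RNA per cell cannot be told apart.

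Which TRIM genes are present at the 2-cell stage was read from the place of each row among all 21780 rows, by the mean of the control embryos. Probe sets differ in response, so a level was compared with the distribution of the arrays, not taken as an amount relative to another gene. Of the 57 rows, 13 (22.8%) lay in the top 25% of control means (above 7.41), 11 between it and the median row (6.27), 24 between the median row and the lowest 25%, and 9 in the lowest 25% (below 5.34). By construction 25% of all rows lie in each band, so the family was not richer in bright rows than the array.

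The 4 rows in the top 10% of all rows (above 9.53) were Trim33, Trim44, Trim59 and Trim13. Trim33 encodes a nuclear reader of histone marks that acts in TGF-beta signalling through Smad4. Its control embryos ran from 10.48 over a median of 10.91 to 11.13, and its PJ34 embryos from 10.497 over 10.89 to 11.10. Trim44, a member without a RING finger, ran from 10.16 over 10.75 to 11.04 in control embryos and from 10.12 over 10.67 to 10.95 in PJ34 embryos. Trim59, a protein with a transmembrane segment, ran from 9.96 over 10.40 to 10.98 and from 9.94 over 10.46 to 10.73. These 3 rows were bright in every one of the 17 embryos, and their groups covered the same range. Trim13, which encodes a ligase of the endoplasmic reticulum membrane that acts in the degradation of misfolded proteins, was bright but uneven: control embryos ran from 8.12 over 9.98 to 10.72 and PJ34 embryos from 9.61 over 10.16 to 11.55.

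The other 9 rows of the top 25% spanned most branches of the family. Trim24, the nuclear cofactor known in the mouse zygote for its part in the onset of transcription, had a control mean of 9.20 ± 0.15 (SD, n = 7). Trim37, a ligase with a MATH domain that is found at peroxisomes, had 9.04 ± 0.46, and Trim23, which carries a GTPase domain of the ARF type, 8.86 ± 0.29. They were followed by the PRY-SPRY protein Trim75 (8.46 ± 0.66), Trim6 (8.14 ± 0.33), the protein kinase C ligase Trim41 (8.02 ± 1.54), the stem cell RNA-binding protein Trim71, also called Lin41 (7.95 ± 0.21), Trim27 (7.75 ± 0.23) and Trim32, a ligase best known from skeletal muscle (7.72 ± 1.73). Neighbours in this order from Trim75 to Trim32 lay closer to each other than the SD of at least 1 member of each pair, so their order was not resolved.

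By C-terminal domain, both transmembrane members (Trim13 and Trim59) and 2 of 3 PHD-bromodomain members (Trim33 and Trim24, not Trim66) lay in the top 25%, as did the single members with a MATH and an ARF domain. Of the 5 members in the group of NHL proteins, which here also held Trim45 with its filamin repeat, 2 were there (Trim32 and Trim71). The 34 members with a PRY-SPRY domain or no C-terminal domain contributed 4 (Trim75, Trim6, Trim41 and Trim27), with 7, 17 and 6 in the lower bands. None of the 3 muscle proteins of the COS class (Trim54, Trim55 and Trim63) and none of the 4 members of the COS-FN3-SPRY class, several of them known from neurons, was in the top 25%. These classes are small, and the shares are descriptions without a test.

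**Figure D1:**
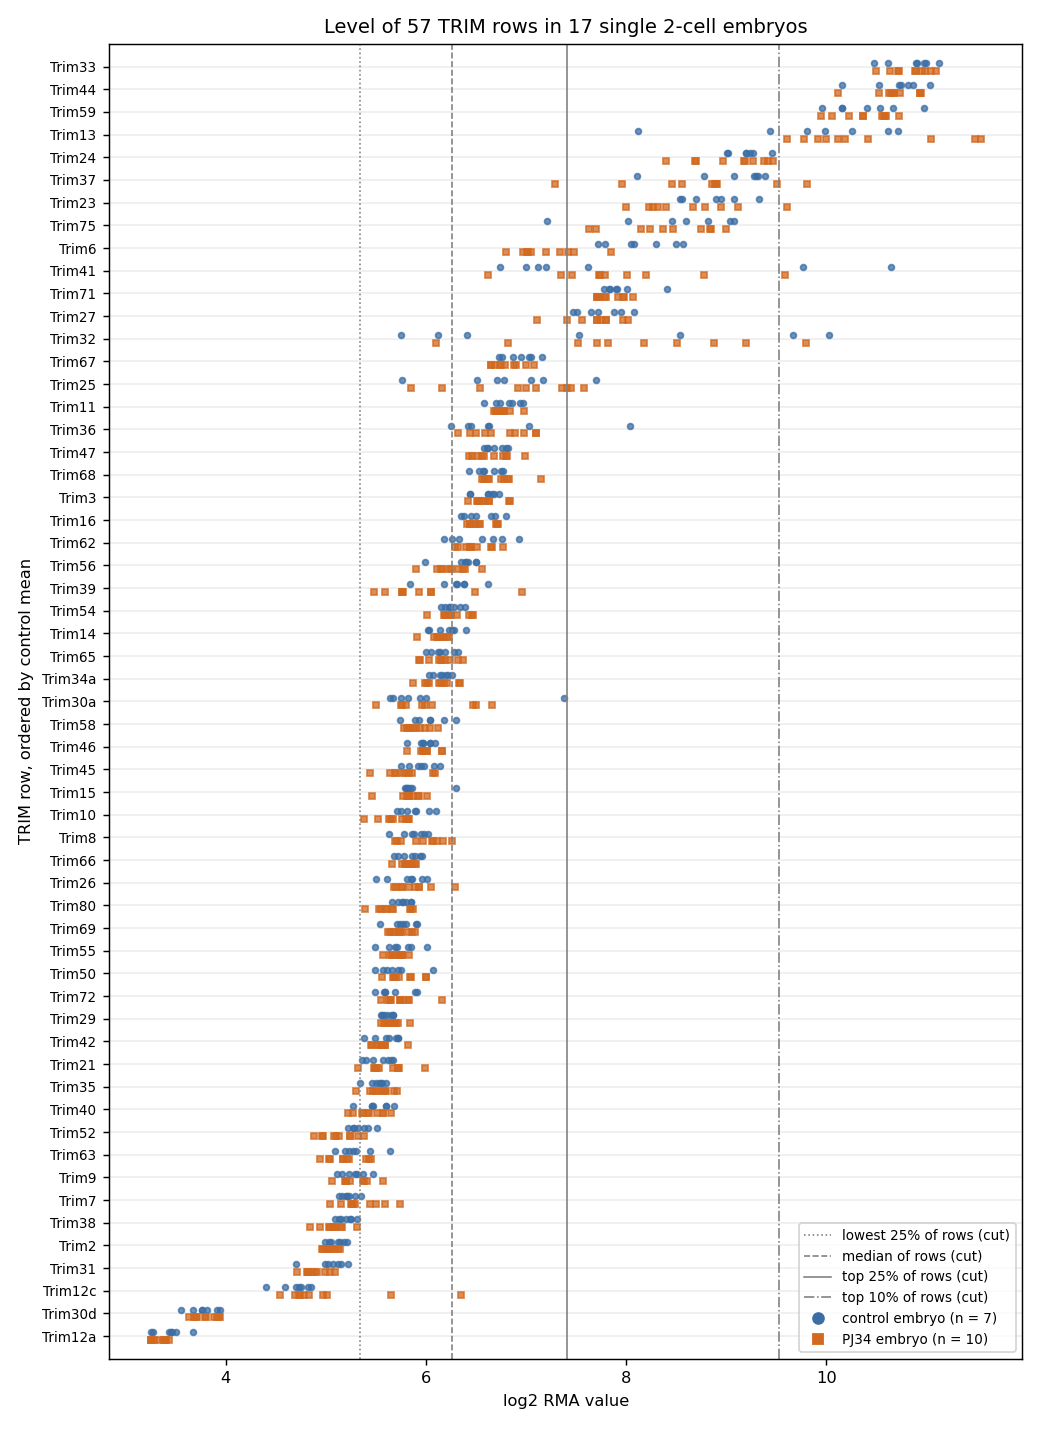
The log2 RMA value (x axis) of each of 57 TRIM rows (y axis, ordered by control mean) in 7 control embryos (blue circles) and 10 PJ34 embryos (orange squares), with vertical lines at the cuts between bands of 25% of all rows and at the top 10%. Trim33, Trim44, Trim59 and Trim13 have control means above 9.53, Trim32 and Trim41 spread the most, and Trim6 is the row whose 2 colours separate the most for the width of its groups.

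Trim6 was set among its neighbours because the gene lies in a cluster of TRIM genes on chromosome 7, inside an array of olfactory receptor genes. Of the 57 members 11 lay on this chromosome, and 5 of them within 1 Mb of Trim6: Trim34a, Trim30a, Trim12c, Trim30d and Trim12a. Trim6 is known from human cells to build free ubiquitin chains that activate a kinase of the interferon pathway and from mouse embryonic stem cells as a ligase for Myc. Trim34a is induced by interferon, Trim30a restrains Toll-like receptor signalling in mouse macrophages, and Trim12a and Trim12c are rodent relatives of the primate virus restriction factor Trim5.

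The promoter windows from RefSeq (GRCm38.p6) ran from 250 bases before to 50 after each annotated start. They were read to show how the cluster members differ around the start site, and 45 of the 57 genes had a window. The 10-letter form of the interferon-stimulated response element, GAAANNGAAA, searched on both strands, was found in windows of 8 of these 45 genes (17.8%), against 3.44% of all 32851 windows and 3.99% of all 27025 genes. The 8 were Trim34a, Trim30a, Trim12c, Trim30d, Trim12a, Trim21, Trim26 and Trim2, so that all 5 cluster neighbours of Trim6 carried it. The 17.8% therefore counts close copies within this cluster more than once and does not describe the family as a whole. The Trim6 window did not hold these letters. It held a GC box (GGGCGG on either strand). This was present in 35.7% of all windows, in those of 38.2% of all genes and in those of 23 of the 45 genes (51.1%). A match is a description of letters, not a measured site. The Trim6 sequence is the part before the start site (chr7:104218545-104218794, plus strand) with the GC box in capitals, read there as its reverse complement.
Trim6: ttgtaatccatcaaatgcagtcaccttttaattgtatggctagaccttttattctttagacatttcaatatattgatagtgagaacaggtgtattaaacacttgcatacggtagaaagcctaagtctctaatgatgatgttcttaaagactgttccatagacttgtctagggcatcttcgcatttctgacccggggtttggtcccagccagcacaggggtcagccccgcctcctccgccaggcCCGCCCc

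For the neighbours a stretch of 30 bases around the element is shown, on the strand of the gene, with the element in capitals. It is read there as its reverse complement. The element began after the start site for Trim34a and Trim12a (offset 10 each). It began before the start site for Trim12c (-29), Trim30a (-36) and Trim30d (-41). The stretches lie at chr7:104244457-104244486 (plus strand) for Trim34a, chr7:104465210-104465239 (minus) for the upstream start of Trim30a, chr7:104353359-104353388 (minus) for Trim12c, chr7:104507871-104507900 (minus) for Trim30d and chr7:104315466-104315495 (minus) for Trim12a.
Trim34a: tggtttggagTTTCAGTTTCttttctctgc
Trim30a: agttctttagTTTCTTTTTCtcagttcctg
Trim12c: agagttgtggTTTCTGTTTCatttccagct
Trim30d: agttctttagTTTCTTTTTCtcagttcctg
Trim12a: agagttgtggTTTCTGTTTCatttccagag

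The Trim30a and Trim30d stretches were identical over 30 of 30 bases and those of Trim12a and Trim12c over 28 of 30. These genes are close copies of each other, and a probe of one may bind the transcript of the other. The stretches do not tell which transcript a probe binds, and this was not tested, so their rows are uncertain as to the gene. In the embryo highest for Trim30a (A-2, 7.38) Trim30d had 3.77. In that highest for Trim12c (MTM14-2, 6.35) Trim12a had 3.25.

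Placed among all rows of the control embryos, the Trim6 row lay above 81.9% of all rows. The rows of Trim34a (6.16 ± 0.08), Trim30a (6.03 ± 0.61), Trim12c (4.69 ± 0.15), Trim30d (3.78 ± 0.14) and Trim12a (3.44 ± 0.14) lay above 46.7%, 42.9%, 13.3%, 2.88% and 0.762% of rows. Of the 6 cluster rows only Trim6 was in the top 25%. How far the response of the probes set these places was not tested.

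PJ34 and control embryos were compared with limma on all 21780 rows, with Benjamini-Hochberg adjustment and the study's threshold of an adjusted p of 0.1. No TRIM row passed, and 0% of all rows did (lowest adjusted p over all rows 0.112). The plain one-way analysis of variance that the study's methods name passed none of the 57 and 0% of all rows, with 4 of the 57 and 5.79% of all rows at an unadjusted p below 0.05. At an unadjusted limma p below 0.05 there were 3 TRIM rows, all lower in PJ34 embryos (Trim6, Trim52 and Trim10), and none higher. Of all rows 5.89% met this level, 3.93% lower and 1.96% higher, so that the share of the family was near the background. The difference was negative for 37 of the 57 rows (64.9%) against 56.4% of all rows, and the median difference was -0.03 against -0.02 (log2). It was smaller than 0.15 in size for 47 rows and larger than 0.3 for 6 (Trim6, Trim13, Trim12c, Trim32, Trim37 and Trim39). No row had groups that did not overlap, which 0.0138% of all rows had.

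Trim6 was the TRIM row with the largest difference in size and stood second among all 21780 rows by p. The 7 control embryos ran from 7.73 over a median of 8.08 to 8.57, and the 10 PJ34 embryos from 6.80 over 7.13 to 7.85. The control mean was above each of the 10 PJ34 embryos. The groups overlapped only through 1 PJ34 embryo, MTM14-2 (7.85), which lay above the 2 lowest control embryos, A-2 (7.73) and D-3 (7.79). The mean was 7.22 ± 0.31 (SD, n = 10) in PJ34 embryos against 8.14 ± 0.33 (n = 7) in controls, a log2 difference of -0.93 (SE 0.15, 95% interval -1.25 to -0.61), which is 1.90-fold lower. The limma adjusted p was 0.117 with an unadjusted p of 1.1e-05, and the exact permutation test of the mean gave an unadjusted two-sided p of 0.000154, since 3 of the 19448 splits of the embryos gave a difference as large.

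The Trim6 difference was seen in the offspring of each PJ34 sire. Embryos of MTM11 had 7.34, 6.97, 7.49 and 7.02, those of MTM13 had 7.05, 7.42, 7.20 and 7.01, and those of MTM14 had 6.80 and 7.85. MTM14 thus fathered both the lowest and the highest of the 10. Against the same 7 controls, which the 3 contrasts share, the log2 difference was -0.94 for MTM11, -0.97 for MTM13 and -0.82 for MTM14, and none passed (lowest limma adjusted p of any TRIM row in a sire contrast 0.513). Of all rows 0.00459%, 0% and 0.0551% passed in these contrasts. The control sires had means of 7.73 (A, 1 embryo), 8.32 (B, 3 embryos) and 8.11 (D, 3 embryos). On the means of 3 sires against 3 the difference was -0.82 and did not pass (limma adjusted p = 0.655). With the sire as a random block, for which a slightly negative correlation of -0.04 was estimated, it was -0.94 and passed (limma adjusted p = 0.0567, where 0.00918% of all rows passed). It also passed without embryo MTM14-2 (adjusted p = 0.0328), without A-2, the only embryo of sire A (0.0722), and without sire MTM14 (0.0785). MTM14-2 was the highest PJ34 embryo and A-2 the lowest control embryo, so leaving either out makes the difference larger by construction. Across the 31 other settings tried, adjusted p-values between 0.0328 and 0.711 and differences between -0.999 and -0.80 were obtained. Trim6 passed in 6 of the 31, which count the fit without A-2 again as that without sire A. For these 6 settings the share of all rows that passed is given here only for the block.

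**Figure D2:**
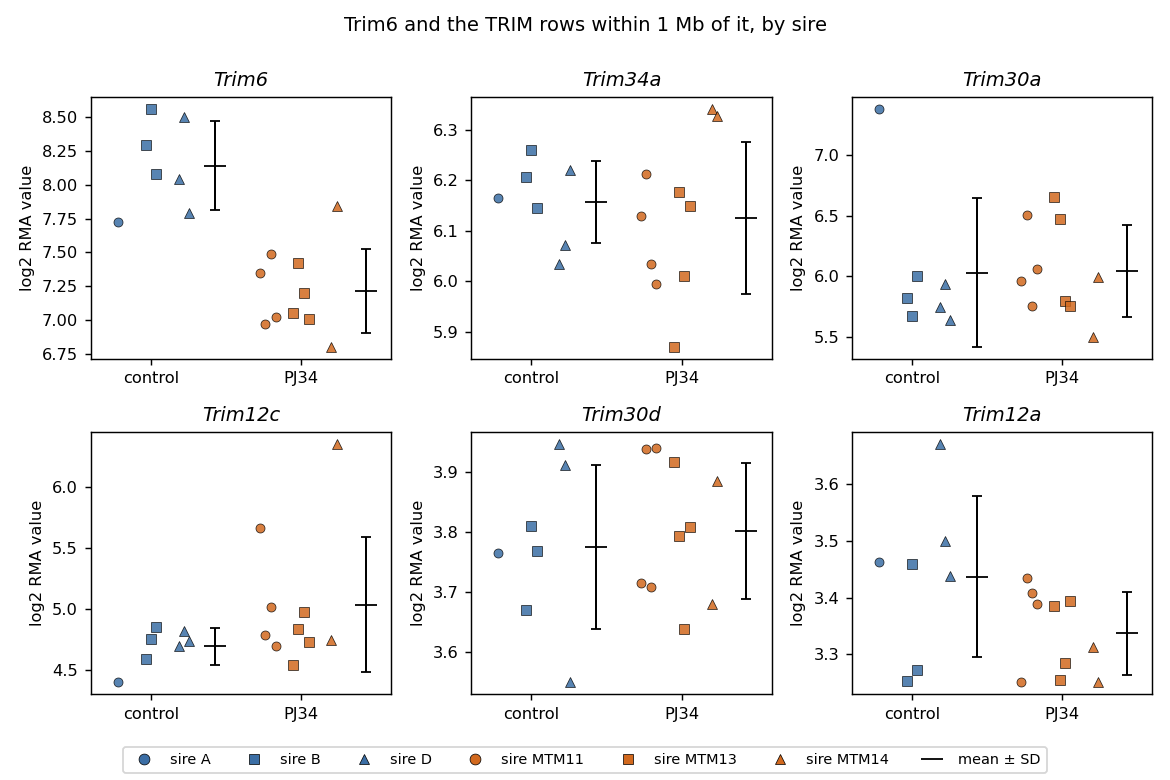
The log2 RMA value (y axis, own scale in each panel) of Trim6 and of the 5 TRIM rows within 1 Mb of it, in control and PJ34 embryos (x axis), each point 1 embryo with its sire given by the symbol and bars at the mean ± SD. The Trim6 groups overlap only through MTM14-2 at 7.85, A-2 stands apart at 7.38 for Trim30a, and MTM11-1 at 5.66 and MTM14-2 at 6.35 stand above the others for Trim12c.

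None of the 5 neighbours of Trim6 reached an unadjusted p of 0.05. Trim34a had a log2 difference of -0.03 (95% interval -0.17 to 0.11), Trim30d 0.03 (-0.11 to 0.16) and Trim12a -0.10 (-0.22 to 0.02). Trim30a had 0.01 with a wider interval (-0.47 to 0.49), and Trim12c had 0.34 (-0.10 to 0.77), with 2 PJ34 embryos above the rest. Without MTM14-2 the Trim12c difference was 0.19. The intervals of all 5 lay above the -0.93 of Trim6. The lowest control mean of any row was 2.93, so Trim30d (3.78) and Trim12a (3.44) had little room for a fall of that size. Trim12c (4.69) was also in the lowest 25% of rows. For these rows the comparison with Trim6 cannot decide whether they shared its difference. Trim34a (6.16) and Trim30a (6.03) also lay below the median row (6.27), and whether they were expressed was not tested. For Trim12a each of the 10 PJ34 embryos was below the control mean, from 3.25 over 3.35 to 3.44 against 3.25 over 3.46 to 3.67, at the bottom of the range of the arrays. Among the 10 annotated genes on each side of Trim6, 7 genes other than TRIM members had a row with 1 symbol (4 olfactory receptors, Ubqln5, Ubqlnl and Olfm5). None of them reached an unadjusted p of 0.05, and the lowest was 0.0873 for Ubqlnl, a ubiquilin-like gene, with a difference of -0.12. Their control means ran from 4.59 (Olfr648) to 6.46 (Olfm5), and only Olfm5 was above the median row. Whether these genes were expressed was not tested.

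Trim52 and Trim10 were the other 2 rows at an unadjusted p below 0.05, and both differences were small. Trim52, a short member with an enlarged RING and no SPRY domain, ran from 5.22 over 5.32 to 5.51 in control embryos and from 4.89 over 5.12 to 5.38 in PJ34 embryos. The difference was -0.21 (95% interval -0.36 to -0.06, limma adjusted p = 0.814, exact permutation test unadjusted p = 0.00987), with 9 of 10 PJ34 embryos below the control mean. Trim10, known for a part in the maturation of red blood cells, ran from 5.71 over 5.89 to 6.10 and from 5.38 over 5.72 to 5.83. Its difference was -0.20 (-0.35 to -0.04, limma adjusted p = 0.843, exact permutation test unadjusted p = 0.0142), and each of the 10 PJ34 embryos was below the control mean. Both rows lay below the median row of the array, and the groups of both overlapped.

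**Figure D3:**
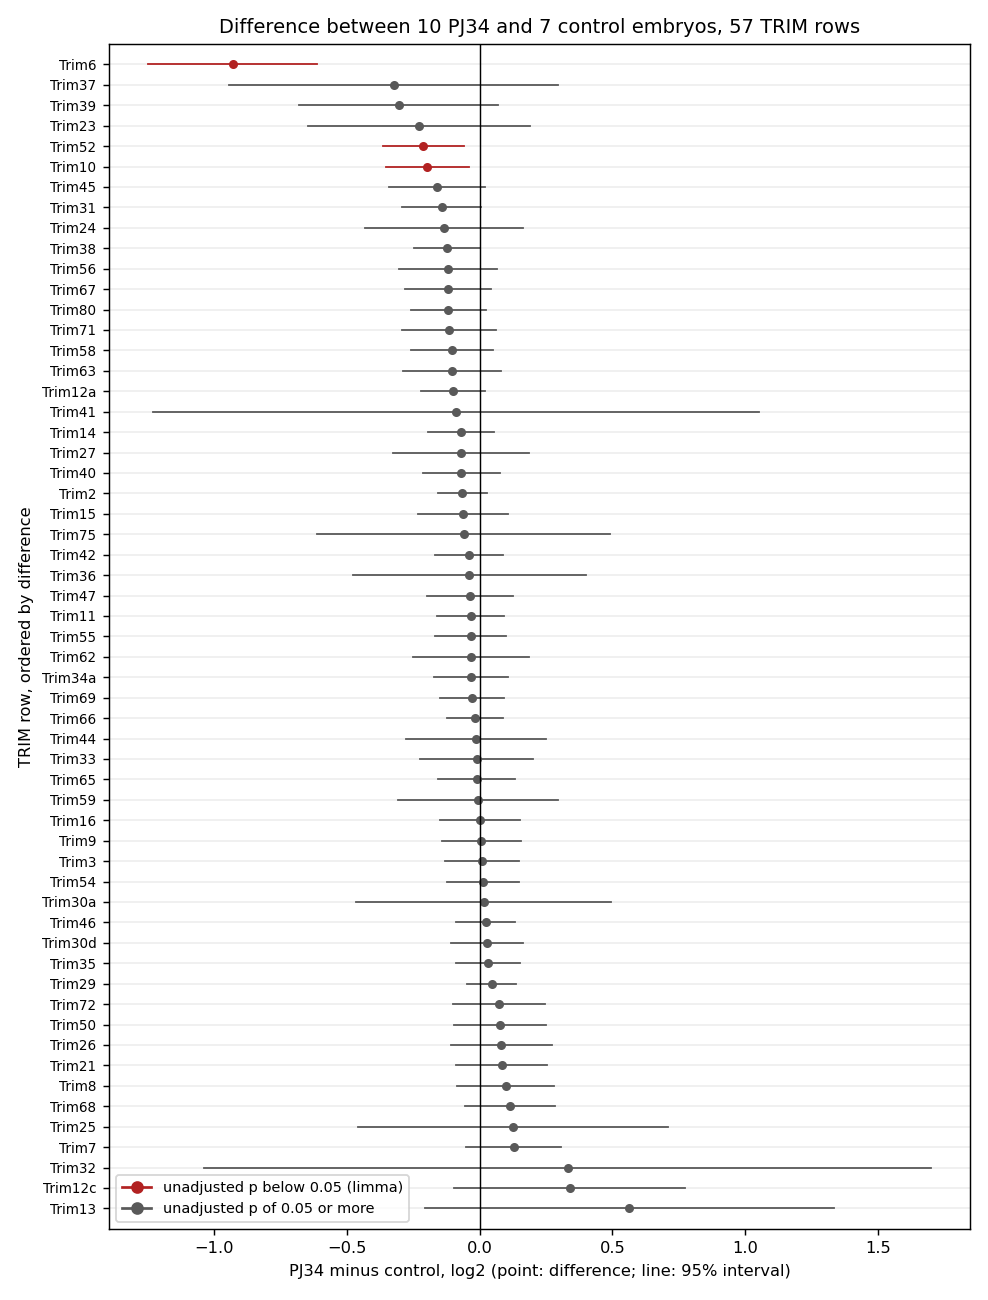
The log2 difference between the means of 10 PJ34 and 7 control embryos (x axis, point) with its 95% interval (line) for each of 57 TRIM rows (y axis, ordered by difference), in red where the unadjusted limma p is below 0.05. Trim6 at -0.93 lies apart from the other rows, Trim52 and Trim10 are the other red rows, and the intervals of the other 54 hold 0.

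For most of the family the 95% interval was narrow, with the embryos taken as independent. It excluded a change of 1 (log2) in either direction for 53 of the 57 rows, and the median standard error over all rows was 0.09. The share of all rows with such an interval was not counted. Of the 57 rows, 24 and 9 lay in the 2 bands below the median row. How far a low signal narrowed their intervals was not tested. The number of embryos, and of sires (3 per group), limits the precision. Among the bright rows Trim33 differed by -0.01 (-0.23 to 0.20), Trim44 by -0.01 (-0.28 to 0.25) and Trim59 by -0.01 (-0.31 to 0.29). Trim24 had -0.13 (-0.43 to 0.16) and Trim71 -0.11 (-0.29 to 0.06). The 4 rows without such a bound were Trim6 and 3 uneven rows: Trim13 with 0.56 (-0.21 to 1.33; 0.27 without control A-2 and 0.91 on sire means), Trim41 with -0.09 (-1.23 to 1.05) and Trim32 with 0.33 (-1.04 to 1.70). Trim13 was above the control mean in 8 of 10 PJ34 embryos, and its lowest value of all was that of control A-2 (8.12).

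The spread between embryos differed strongly between members. The median SD over 7 control embryos was 0.15 for the TRIM rows and 0.18 for all rows, and 0.33 against 0.37 within the top 25%. It was below 0.2 for 40 members, with the least spread in Trim29 (0.05), and above 0.6 for 7. Trim32 had a larger control SD than 99.5% of all rows and Trim41 than 99.1%. Trim32 ranged over 4.28 log2 units in control embryos: D-2 had 10.02, A-2 9.67, B-3 8.54, D-1 7.53, B-2 6.41, B-1 6.13 and D-3 5.75. The SD was 1.73 in control and 1.11 in PJ34 embryos, which ran from 6.10 over 7.997 to 9.80, and the highest and the lowest control embryo came from the same sire. Trim41 was low in 5 control embryos, from 6.75 to 7.63, and high in D-2 (9.76) and D-3 (10.65). Its PJ34 embryos ran from 6.62 over 7.77 to 9.59. D-2 was thus high for both Trim32 and Trim41, while D-3 was the highest embryo for Trim41 and the lowest for Trim32.

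The next rows in control SD were Trim13 (0.88), Trim75 (0.66), Trim30a and Trim36 (0.61 each). Trim75 ran from 7.21 in B-2 over 8.60 to 9.08 in A-2, and its PJ34 embryos from 7.63 over 8.42 to 8.997. The spread of Trim36, a ligase known from the acrosome reaction of mouse sperm, came from 1 embryo, B-2 with 8.04, where the other 6 controls lay between 6.26 and 7.04. The spread of Trim30a came from A-2 with 7.38, where the other 6 lay between 5.64 and 6.005. PJ34 embryos ran from 6.32 over 6.75 to 7.10 for Trim36 and from 5.50 over 5.98 to 6.66 for Trim30a. The SD was larger among PJ34 than among control embryos for 28 of the 57 members, so neither group was the more variable over the family.

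**Figure D4:**
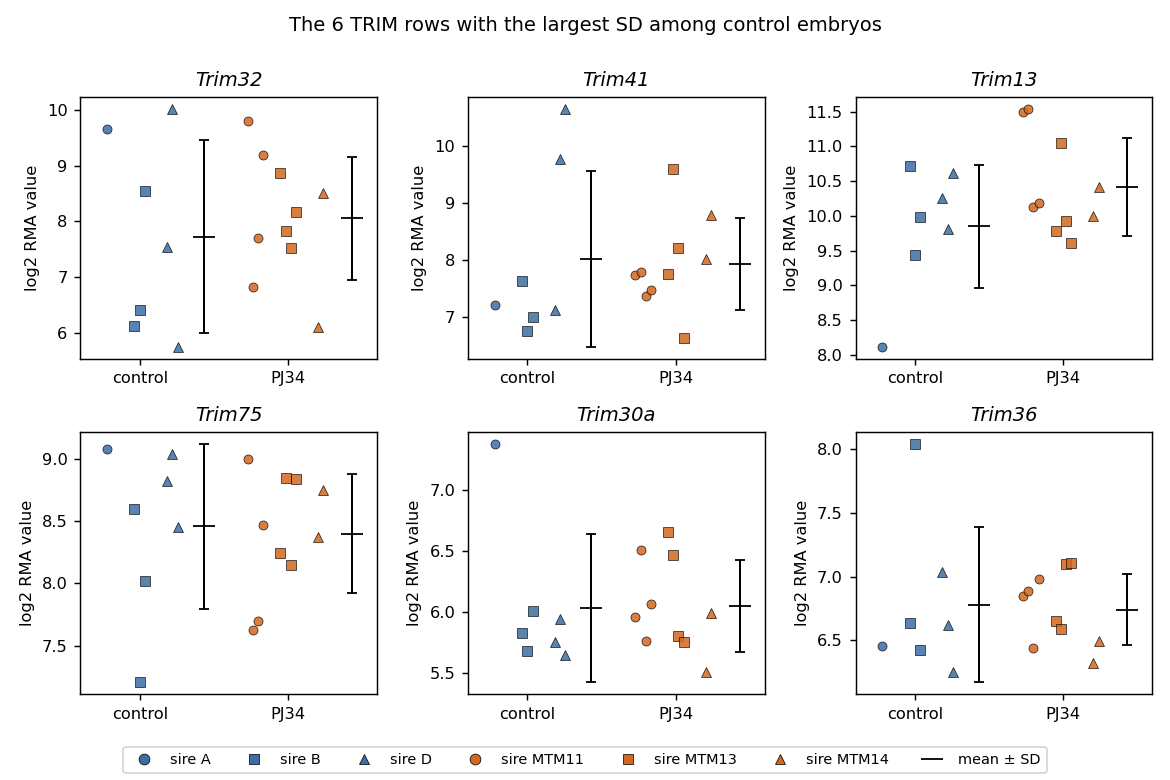
The log2 RMA value (y axis, own scale in each panel) of the 6 TRIM rows with the largest SD among control embryos, in control and PJ34 embryos (x axis), each point 1 embryo with its sire given by the symbol and bars at the mean ± SD. Trim32 scatters within sires in both groups, and Trim41 scatters most within sires D (7.125 to 10.65) and MTM13 (6.62 to 9.59). Single control embryos set the spread of Trim36 (B-2 at 8.04), Trim30a (A-2 at 7.38) and, on the low side, Trim13 (A-2 at 8.12).

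Taken sire by sire against the 7 controls, 4 TRIM rows had an unadjusted limma p below 0.05 for MTM11 (where 5.25% of all rows did), 3 for MTM13 (4.96%) and 7 for MTM14 (5.53%). Only Trim6 was among them for all 3 sires, as were 0.207% of all rows, in contrasts that share the 7 controls. For MTM11 it was joined by Trim13, Trim25 and Trim35, all higher, for MTM13 by Trim52 and Trim10, both lower, and for MTM14 by Trim12c, which was higher, and by Trim23, Trim25, Trim31, Trim45 and Trim80, which were lower. Trim25 thus stood on opposite sides of the controls in the offspring of 2 sires, by 0.64 for MTM11 and by -0.80 for MTM14 (log2).

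The 3 PJ34 sires were compared with each other by a moderated F test in the same fit of all 17 embryos. No TRIM row passed (lowest adjusted p 0.857, where 0.0138% of all rows passed), and 3 members had an unadjusted p below 0.05 (Trim25, Trim34a and Trim35), where 4.91% of all rows did. Trim25, which ubiquitinates the RNA sensor RIG-I, is named for its values here, outside the rule for named genes. Its MTM11 embryos had 7.41, 7.58, 7.45 and 7.36, its MTM13 embryos 6.92, 7.10, 6.54 and 7.003, and its MTM14 embryos 6.16 and 5.86. The ranges of the 3 sires did not overlap (F test of limma, unadjusted p = 0.0039, adjusted p = 0.857). Trim25 had the lowest p of the TRIM rows in this test. The share of all rows without overlap between the 3 sires was not counted, so a difference between sires cannot be concluded. The controls covered the whole range of these PJ34 values. They had 7.17 for A-2, 6.52, 5.76 and 6.78 for B and 7.70, 6.71 and 7.05 for D.

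Each PJ34 embryo was also set alone against the 7 controls, with the spread taken from the controls, and each control embryo against the other 6. Over the 10 PJ34 embryos 0.581% of all row values passed an adjusted p of 0.1 (0.289% to 0.918% in single embryos), and over the 7 control embryos 0.397% (0.289% to 0.487%). Over the 10 PJ34 embryos 2 TRIM calls were made, both for Trim12c: MTM14-2 with 6.35 was 3.15-fold above the control mean (log2 difference 1.65, limma adjusted p = 0.0113), and MTM11-1 with 5.66 was 1.95-fold above it (0.96, adjusted p = 0.0654). The other 8 PJ34 embryos had Trim12c between 4.54 and 5.02, near the 7 controls (4.40 to 4.85). Over the 7 control embryos 1 TRIM call was made, Trim30a in A-2, 2.98-fold above the other 6 (1.57, adjusted p = 0.0201). With the spread taken from all 17 embryos 0.594% and 0.423% of row values passed. Trim12c then passed in MTM14-2 (adjusted p = 0.00953) and Trim30a in A-2 (0.0557). Trim12c in MTM11-1 no longer passed (adjusted p = 0.685), while Trim6 in MTM14-1, 2.53-fold below the control mean (-1.34), did (0.0935), as did Trim36 in control B-2 (1.47, 0.0352). Single embryos that passed were therefore found in both groups.

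Genes that work with the TRIM proteins were counted in lists. Of 12 genes with the TRIM fold but no Trim number, with Trim28 counted among them, 5 lay in the top 25% and none had an unadjusted p below 0.05 between PJ34 and control embryos (differences from -0.30 to 0.06). Ubiquitin-conjugating enzymes, which hand ubiquitin to these ligases, were counted by symbol alone, as all rows with a symbol beginning with Ube2. Of these 48 rows of 35 genes, some with several rows, 31 (64.6%) lay in the top 25%. One of them, Ube2b, was lower in PJ34 embryos at an unadjusted limma p below 0.05, with a difference of -0.86 (limma adjusted p = 0.843). Of all rows 5.89% met this level. Of 17 genes of innate sensing, none had an unadjusted p below 0.05. The nearest were Irf3 (-0.34, unadjusted limma p = 0.0569) and Tbk1 (-0.36, 0.0602), which act downstream of the nucleic acid sensors. Of 18 interferon-stimulated genes 1 lay in the top 25% (Ifitm3 with a control mean of 10.23), none had an unadjusted p below 0.05, and their differences ran from -0.31 to 0.08. The control means of that list ran from 4.21 over a median of 5.53 to 10.23. Ifit1 (5.27), Mx1 (4.21) and Rsad2 (5.20) stood in the lowest 25% of rows in control embryos. Other members stood higher, with Bst2 (7.27) above 73.2% and Oasl1 (7.15) above 71.4% of rows.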

How the data were processed

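RNA of single 2-cell embryos was amplified (WT-Ovation One-Direct) and hybridized to Affymetrix arrays. The authors deposited log2 values per probe set, made with RMA (background correction, quantile normalization, log2 transformation, summarization) in Partek. The probe sets' genome build and the version of Partek were not given in the sources used here. No further normalization was applied.

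Rows were paired with genes by the platform annotation: of 28815 rows, 21780 had 1 symbol (19935 genes), 1605 several and 5430 none. A further 6 rows with several symbols, of which at least 1 was a Trim symbol, were not used. All 57 symbols were current in RefSeq (GRCm38.p6).

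Differences were tested with limma 3.58.1 (R 4.3.3; two-sided, Benjamini-Hochberg over all rows with 1 symbol, threshold 0.1). The lists "innate sensing", "interferon-stimulated" and the marker lists were counted where a row had 1 symbol. Groups, sires and embryo numbers came from the labels. The daily injections over 6 weeks are those of the labels, while 1 supplementary legend names a longer course for males used for sperm. The 7 control embryos enter every contrast. Scripts were tested on simulated data. Single values were tested by exact permutation over 19448 splits of the 17 embryos. Alternatives were the sire as a random block (estimated correlation -0.04), sire means, leaving out each embryo or sire, median-centred arrays, all rows, rows above the median level, a variance trend, a plain analysis of variance, gene means and other spreads.

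Members, lists and domain classes were chosen with earlier results of these data known. Named genes were Trim6 and members within 1 Mb, members with an unadjusted p below 0.05, in the top 10% of rows by control mean, among the 6 with the largest control SD, or called in a sire or a single embryo. Promoter sequences are from RefSeq. Plots were made in matplotlib 3.10.9 (Python 3.11.15).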

Additional observations from a re-analysis of the deposited data

Results flagged for a closer look

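Each of the 57 rows was examined in both groups for an embryo that stood apart by Dixon's criterion (the gap to the nearest embryo over the range of the group). Of these 114 groups 10 had such an embryo, 4 in control and 6 in PJ34 embryos, where chance flags about 1 in 20 groups and 11.8% of the groups of all 21780 rows had one. On the high side were Trim30a in A-2 (7.38, next embryo 6.005), Trim71 in B-2 (8.41, next 8.01), Trim15 in B-2 (6.30, next 5.86), Trim68 in MTM11-2 (7.15, next 6.83), Trim72 in MTM11-2 (6.16, next 5.84) and Trim42 in MTM11-4 (5.82, next 5.59). On the low side were Trim56 in A-2 (6.00, next 6.36), Trim44 in MTM11-4 (10.12, next 10.53), Trim14 in MTM11-4 (5.91, next 6.08) and Trim15 in MTM11-3 (5.47, next 5.78). All 6 PJ34 values so found were from offspring of MTM11, and 3 of them from MTM11-4. Over all rows 44.5% of the PJ34 values that stood apart were of MTM11.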

How the results depend on the processing

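The count of TRIM rows past the threshold was 0 and became 1, Trim6, under the random sire block and among rows above the median level (adjusted p = 0.0681). On the means of 3 sires against 3 it was 0, with an adjusted p of 0.655 for Trim6. Leaving out single embryos or sires gave 0 to 1. The share of all rows that passed is given here for the block (0.00918%), but not for the other settings in which Trim6 passed. Rows at an unadjusted p below 0.05 numbered 3, with 5 under the block, 5 with a variance trend, 1 among rows above the median level and 3 to 7 with an embryo or sire left out (7 without sire MTM11). The share of all rows at this level was not counted in these other fits. Whether these counts exceed the background of their own fit therefore cannot be told. TRIM calls in single PJ34 embryos fell from 2 to 1 at an adjusted p of 0.05. The median control SD was 0.136 as a scaled median absolute deviation and 0.162 pooled within both groups, against 0.154. The top 25% of rows held 12 to 13 members. No paired analysis was possible because embryo numbers restart within each sire and sires lie within groups. Small differences, none of them called, changed sign: on sire means Trim30a had -0.335, Trim32 -0.225, Trim34a 0.0007, Trim41 0.171, Trim44 0.000681 and Trim59 0.0282, and on centred arrays Trim59 had 0.00214. With an embryo or sire left out the ranges were -0.175 to 0.240 (Trim30a), -0.00996 to 0.0562 (Trim30d), -0.191 to 0.715 (Trim32), -0.154 to 0.0971 (Trim33), -0.0853 to 0.0160 (Trim34a), -0.146 to 0.172 (Trim36), -0.757 to 0.785 (Trim41), -0.107 to 0.0983 (Trim44), -0.150 to 0.201 (Trim59) and -0.448 to 0.173 (Trim75). Trim13 (0.56) became 0.27 without A-2 and 0.91 on sire means, and Trim12c (0.34) became 0.19 without MTM14-2 and 0.49 on sire means, in the same direction. The cause was not tested.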
